A study of Mus musculus with 4 samples.

Results

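Mitochondria import nearly all of their proteins from the cytosol, and the RNAs of the import machinery were compared between pseudopodia, the protrusions that a migrating cell extends, and cell bodies of NIH/3T3 cells, a mouse fibroblast line. The members were chosen by gene symbol. They are the translocase subunits named Tomm and Timm with a digit, and Pam16, Dnajc19, Hspa9, Grpel1, Grpel2, Pmpca, Pmpcb, Samm50, Mtx1, Mtx2, Hspd1 and Hspe1. They made up 71 of the 45101 probe sets of the array and 34 of the 18194 genes named by a single symbol. A probe set is a group of short probes for 1 transcript. Another 6 probe sets carried a member symbol together with other symbols and were not used, which leaves Dnajc19, Tomm5 and Tomm6 without a value. Of the members, 62 probe sets of 32 genes passed the filter on dim signals and were tested.

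All 4 samples were of LPA-treated cells. Cells starved of serum were left to spread for 2 h on top of a fibronectin-coated porous membrane, and lysophosphatidic acid (LPA), a lipid that stimulates migration, was then given from below at 150 ng/ml for 1 h. After fixation in formaldehyde, 1 face of the membrane was wiped clean and the other was collected, which gave 2 independent samples of pseudopodia and 2 of cell bodies. The fractions are thus defined by the side of the membrane. No genotype or agent other than LPA is named, and unstimulated cells were not analysed here.

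Proteins bound for mitochondria are made on cytosolic ribosomes with targeting signals that receptors of the TOM complex recognise at the outer membrane. From its pore, precursors pass to the SAM complex for barrel proteins, to the small TIM chaperones and the TIM22 complex for carriers, or to the TIM23 complex and the import motor for the matrix, where a peptidase removes the signal and chaperonins fold the protein. Some RNAs of mitochondrial proteins are known to be translated at the outer membrane.

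The promoters of 5 members whose values are described below are printed here. Whether a promoter bears on the fraction in which an RNA is found was not tested. Each is the 250 bases before the RefSeq start site in the build GRCm38.p6, read 5′ to 3′ on the strand of the gene. Capitals mark CCGGAAG, the core bound by ETS family factors, or its reverse complement. The first 4 hold the core and the last does not.
Tomm70a (chr16:57121464-57121713, forward strand): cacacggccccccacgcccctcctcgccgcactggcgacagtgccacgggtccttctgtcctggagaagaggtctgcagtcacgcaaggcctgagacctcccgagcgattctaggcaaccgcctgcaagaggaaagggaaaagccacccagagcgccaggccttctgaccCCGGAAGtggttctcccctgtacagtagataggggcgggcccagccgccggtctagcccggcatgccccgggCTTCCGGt
Timm8b (chr9:50603651-50603900, forward strand): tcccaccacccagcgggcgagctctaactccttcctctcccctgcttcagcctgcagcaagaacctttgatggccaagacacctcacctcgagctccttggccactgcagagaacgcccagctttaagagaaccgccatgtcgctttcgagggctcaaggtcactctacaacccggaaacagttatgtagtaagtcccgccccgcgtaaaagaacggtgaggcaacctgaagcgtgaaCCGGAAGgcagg
Hspe1 (chr1:55087898-55088147, forward strand): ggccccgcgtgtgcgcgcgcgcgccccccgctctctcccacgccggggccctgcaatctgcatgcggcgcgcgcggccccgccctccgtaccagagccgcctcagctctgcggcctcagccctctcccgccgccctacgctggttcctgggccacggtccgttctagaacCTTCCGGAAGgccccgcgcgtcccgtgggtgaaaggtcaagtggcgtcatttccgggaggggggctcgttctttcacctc
Timm29 (chr9:21592472-21592721, forward strand): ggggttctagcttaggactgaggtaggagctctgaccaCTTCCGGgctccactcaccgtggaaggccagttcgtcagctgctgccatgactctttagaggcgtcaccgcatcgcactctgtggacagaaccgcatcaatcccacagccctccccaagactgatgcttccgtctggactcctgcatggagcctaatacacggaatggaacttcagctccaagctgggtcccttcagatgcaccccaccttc
Pam16 (chr16:4624947-4625196, reverse strand): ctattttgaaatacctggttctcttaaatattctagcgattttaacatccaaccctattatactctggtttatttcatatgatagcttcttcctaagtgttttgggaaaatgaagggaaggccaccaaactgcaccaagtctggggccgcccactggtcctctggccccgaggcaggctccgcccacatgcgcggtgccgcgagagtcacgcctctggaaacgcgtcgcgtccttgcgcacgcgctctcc

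The MAS5 signal, an intensity in arbitrary units, had a median of 29.8 to 33.3 over all probe sets on the 4 arrays. Of 8 fibroblast markers 7 passed the filter, the exception being Thy1, and their summed signals spanned 113991.9 to 123368.8. Their median gene differed by -0.305, and 3 of 15 probe sets were lower in pseudopodia and 0 higher by limma (7 and 3 unadjusted). The lower ones were single sets of Fn1 at -2.56, Pdgfrb at -1.29 and Col1a2 at -0.98. Among all probe sets tested 3.32% were lower and 1.08% higher. The part of these markers in the member values was not tested. Of the markers of other cell types that had a probe set, 3 of 6 for epithelium, 1 of 4 for blood, 1 of 3 for endothelium and 0 of 3 for muscle and fat passed. The epithelial sum, mostly Krt14, was 2587.3 and 2228.1 on the cell body arrays against 2083.7 and 2349 for pseudopodia, and Krt14 differed by -0.10 ± 0.19. The summed signals of blood, endothelium, and muscle and fat markers lay between 29.7 and 104.4 on each array. As a check of the fractions, the nuclear RNA Neat1 differed by -2.17 ± 0.21 (limma, adjusted p = 0.0131) on its brightest probe set. Kif1c, a kinesin known in protrusions, differed by 2.14 ± 0.22 (limma, adjusted p = 0.0138) on its brightest. Malat1, the other nuclear RNA listed, stood at -1.39 (adjusted p = 0.154) on its brightest probe set and at 0.56 on another, and none of its tested probe sets passed. The dimmer Kif1c sets stood at 0.41, 0.22 and 0.86 and did not pass. Rab13 was higher by 1.99 and Pkp4 by 2.06 and 1.54. Kif1c, Rab13 and Pkp4 were listed with earlier results of these data known, so their values are no independent check. The ratio of the 3' to the 5' control probe set of beta-actin, a sign of RNA integrity, was 1.14 and 1.81 times the cell body ratio in the pseudopodia of replicates 1 and 2, and for Gapdh 1.05 and 1.06 times. Its part in the values below was not tested.

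Differences are log2(signal + 32) of pseudopodia minus cell body with the SE of the limma fit, and n = 2 arrays per fraction throughout. They are relative to the total signal of a fraction. The number of cells that carry an RNA into protrusions and its amount per cell cannot be told apart in these pooled samples.

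Most members stood somewhat higher in pseudopodia, but few passed the main test, which did not pair the arrays. By its brightest kept probe set, the median member gene differed by 0.307, against 0.0139 for all 10962 genes measured, with medians of 0.342 and 0.265 in the replicate 1 and replicate 2 pairs of arrays. The members spanned -0.48 (Timm29) to 0.872 (Tomm70a). Of the 32 genes, 24 were positive in both pairs, 3 negative in both, and 5 had opposite signs in them. In all, 27 of the 32 were positive (84.4%, against 51.2% of all genes). After scaling on the hybridization controls 15 were positive, and 26 lay above the median gene. The direction of the median depended on the scaling, since it was 0.198 after quantile normalization and -0.0246 after scaling on the hybridization controls, which moved the median of all genes to -0.288. Relative to the median gene it was 0.293 as reported, and 0.127 and 0.263 under these scalings.

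**Figure D1:**
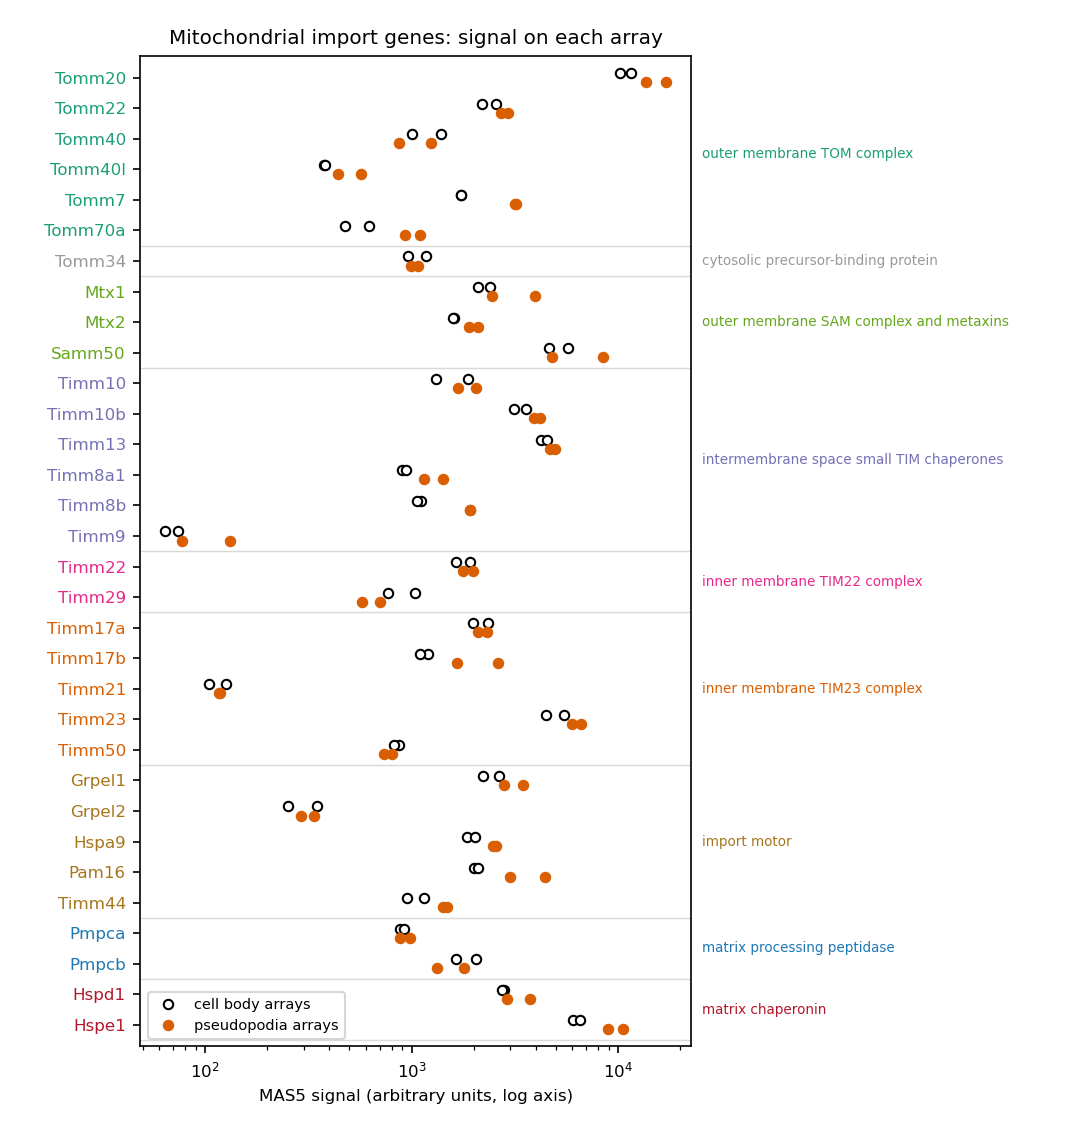
MAS5 signal on a log axis for the brightest kept probe set of each of the 32 member genes, grouped by role, with open points for the cell body arrays and filled points for the pseudopodia arrays. Tomm7, Timm8b and Tomm70a show pseudopodia points clear of the cell body points, and Timm29 shows the opposite order.

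Of the 62 member probe sets tested, 3 were higher (4.84%) and 0 lower by limma's moderated test with Benjamini-Hochberg adjustment at 0.05. Among all probe sets tested, 4.4% passed in either direction, 1.08% higher and 3.32% lower, a split that moved to 0.24% and 6.69% on hybridization controls. At an unadjusted p under 0.05 the 62 members gave 17 higher and 1 lower, and all 22519 probe sets gave 1951 higher and 3005 lower. With the replicate number, which marks a shared scan day, as a block, 16 member probe sets of 10 genes were higher (25.8%, against 6.84% of all) and 0 lower. These were Tomm7, Tomm20, Tomm22, Tomm70a, Timm8b, Timm17b, Timm44, Timm50, Pam16 and Hspe1, with adjusted p from 0.000467 to 0.0204 in limma. That fit has 1 residual degree of freedom against 16.8 from the prior. The member median was 0.249 or 0.378 without cell body replicate 1 or 2, and 0.322 or 0.222 without pseudopodia replicate 1 or 2. Higher calls became fewer without a cell body array and more numerous without a pseudopodia array, for members and all probe sets alike. On hybridization controls, without the filter or without the variance trend limma called 0 members higher (4, 22 and 14 unadjusted). In these settings 392, 2637 and 1571 of all probe sets were higher unadjusted. A positive difference was found for 51 member probe sets (82.3%, against 47.7% of all). Both pseudopodia arrays lay above both cell body arrays for 35 (56.5%, against 24.7%) and below them for 5 (8.06%, against 28.2%). At least 1.5-fold apart in all 4 array pairs were 7 higher (11.3%, against 2.79%) and 0 lower, where 7.86% of all were lower. The member genes were brighter, with a median signal of 1765 against 321.9 for all genes measured. A stricter filter on dim signals left 53 member probe sets and 11260 in all. There limma called 3 members higher (5.66%, against 2.33% of all) and 0 lower, where 4.63% of all were lower. The member median was then 0.307, against -0.00122 for all genes left. The part of brightness in the member values was not tested.

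All 3 probe sets that passed have the suffix _x_at, by which Affymetrix marks sets with probes that may also match other transcripts. The median difference of members was 0.674 for 11 sets with that suffix, 0.634 for 5 with _s_at, 0.463 for 11 with _a_at and 0.19 for 35 plain _at sets. Over all probe sets tested these medians were 0.214, 0.0661, 0.0069 and -0.0441. Within a gene the mean of the _x_at sets lay above that of the others in 8 of 9 member genes (median 0.375) and in 669 of 890 genes overall (median 0.277). Without _x_at sets, an alternative chosen after seeing the data, Timm8b was the 1 member higher, and with plain _at sets alone it was Tomm7. The member median was then 0.263 and 0.234.

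**Figure D2:**
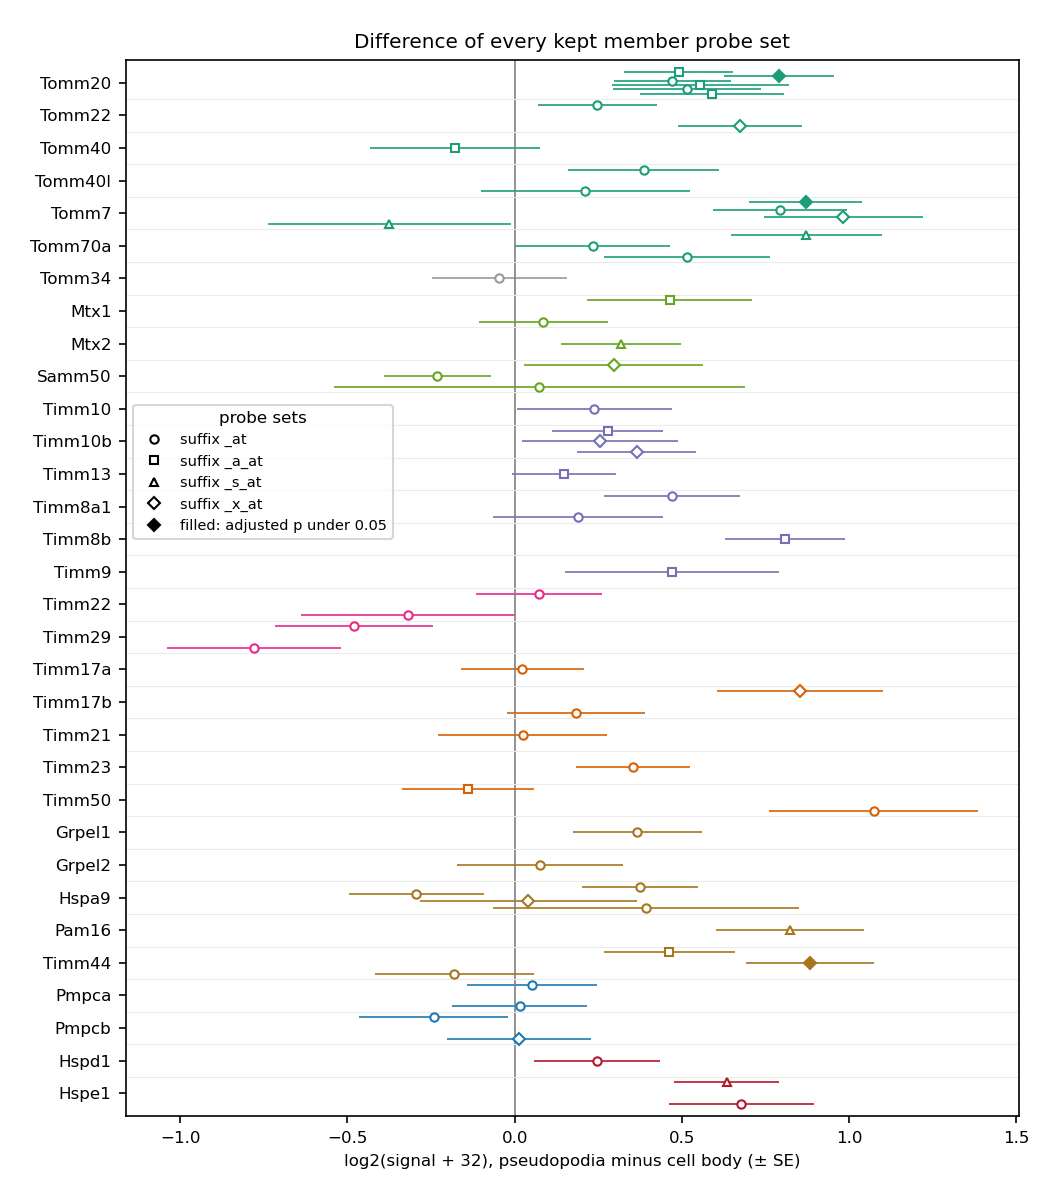
Difference ± SE of each of the 62 member probe sets tested, by gene, with the marker shape giving the suffix and filled markers an adjusted p under 0.05. Most points lie right of 0, and probe sets of 1 gene differ among themselves, as in Timm50 and Timm44.

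Of the 3 probe sets that passed, 2 belong to the TOM complex, the receptors and pore of the outer membrane. Its 6 genes had a median of 0.438, or 0.111 on hybridization controls. That median stayed positive under every scaling tried, as did those of the small TIM chaperones, the import motor and the matrix chaperonin. Both pseudopodia arrays lay above both cell body arrays for 14 of 18 TOM probe sets (77.8%, against 24.7% of all). The share was 68.3% for probe sets of the respiratory chain and 48.9% for those of mitochondrial ribosomal proteins. Tomm7, a small subunit that affects the stability of the complex, had cell body signals of 1735.9 and 1724.5 and pseudopodia signals of 3153.7 and 3195.3 on its brightest probe set. The arrays of each fraction lay close together and far from those of the other. The difference was 0.87 ± 0.17 (limma, adjusted p = 0.038), a fold of 1.83, and stood at 0.538 on hybridization controls, without passing. Dimmer probe sets of Tomm7 stood at 0.79 and 0.98 (adjusted p = 0.0678 and 0.0623), and the dimmest, with overlapping arrays, at -0.37.

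Tomm20, a receptor for targeting signals, had cell body signals of 6912 and 6819 and pseudopodia signals of 10533.3 and 13394.8 on the probe set that passed. Both pseudopodia arrays were higher, replicate 2 more so. The difference was 0.79 ± 0.16 (limma, adjusted p = 0.0437). The brightest Tomm20 probe set stood at 0.49 ± 0.16 (adjusted p = 0.132), with cell body signals of 10166.7 and 11582.9 and pseudopodia signals of 13600.4 and 17089.1. After quantile normalization and on hybridization controls the set that passed stood at 0.491 and 0.457, without passing, and the brightest at 0.199 and 0.157. With a pseudocount of 1 the set that passed had an adjusted p of 0.0528 in limma. All 6 Tomm20 probe sets had non-overlapping arrays in the same order, and the other 4 stood between 0.47 and 0.59.

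Tomm70a, a receptor for carrier precursors that arrive with chaperones, had cell body signals of 473.9 and 624.4 and pseudopodia signals of 1094.8 and 930.1. The arrays did not overlap, but the pairs differed, at 1.18 and 0.56. The difference of 0.87 ± 0.23 did not pass (adjusted p = 0.0727). Its other kept probe sets stood at 0.23 and 0.51. Tomm22, the central receptor, stood at 0.25 on its brightest and 0.67 on its other probe set (adjusted p = 0.0826). Tomm40, the pore, stood at -0.18 with overlapping arrays and a 95% interval of -0.77 to 0.42, and its relative Tomm40l at 0.39. Tomm34, a cytosolic protein that binds precursors, stood at -0.05 with overlapping arrays.

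The SAM complex and metaxins, which insert barrel proteins, gave 0.30 for Samm50, 0.46 for Mtx1 and 0.32 for Mtx2. The dimmer probe set of Mtx1 stood at 0.09. Samm50 was uneven, as a second bright probe set stood at -0.23 with both pseudopodia arrays below. The median of the 3 was 0.318, and -0.0124 on hybridization controls.

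The small TIM proteins escort hydrophobic precursors across the intermembrane space, and all 6 measured genes were positive, with a median of 0.374 (3 positive, with a median of 0.0442, on hybridization controls). Timm8b had cell body signals of 1105.7 and 1064.2 and pseudopodia signals of 1918.9 and 1906.6. These arrays were clearly apart and alike within each fraction. Its difference of 0.81 ± 0.18 lay just outside the threshold (limma, adjusted p = 0.0512). Timm8a1, with cell body signals of 897.4 and 940.3 and pseudopodia signals of 1422.3 and 1150.4, stood at 0.47 ± 0.20 (adjusted p = 0.228), and its dimmer probe set at 0.19. Timm9, a dim probe set with cell body signals of 64.2 and 74.1 and pseudopodia signals of 77.3 and 132.5, stood at 0.47 ± 0.32 (adjusted p = 0.437). Timm9 stood at 0.134 without pseudopodia replicate 2 and 0.805 without pseudopodia replicate 1. The arrays of both genes did not overlap on these probe sets. A dimmer Timm9 probe set, not tested, had cell body signals of 33.8 and 28.5 and pseudopodia signals of 3.7 and 1. That is the opposite order of the fractions. Timm10, Timm10b and Timm13 stood at 0.24, 0.28 and 0.15.

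The inner membrane translocases had members on both sides of 0. In the TIM22 complex, which inserts carriers, Timm29 had cell body signals of 1037.2 and 764.4 and pseudopodia signals of 700.7 and 573.8. Both pseudopodia arrays were below both cell body arrays. Its difference of -0.48 ± 0.24 was the lowest of any member gene and did not pass (limma, adjusted p = 0.284). Timm29 stood at -0.263 without cell body replicate 1 and -0.805 on hybridization controls. Its dimmer probe set stood at -0.78 (adjusted p = 0.134). Timm22, the channel, stood at 0.07, with an interval of -0.37 to 0.51, and its dimmer probe set at -0.32 with overlapping arrays.

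In the TIM23 complex, the main route to the matrix, the median was 0.0238 (0.189 after quantile normalization and -0.269 on hybridization controls). Timm17b had cell body signals of 1205.8 and 1098.3 and pseudopodia signals of 1661.7 and 2629. The pseudopodia arrays were higher but far from each other. The difference was 0.85 ± 0.25 (limma, adjusted p = 0.0963), or 0.524 without pseudopodia replicate 2, while its plain probe set stood at 0.18. Timm50, the receptor of the complex, gave -0.14 ± 0.20 for its brightest probe set, with cell body signals of 872.3 and 818.6 and pseudopodia signals of 798.8 and 733.1. A dim probe set of Timm50, with cell body signals of 59.3 and 111.1 and pseudopodia signals of 197.9 and 182.1, stood at 1.07 ± 0.31 (adjusted p = 0.0965), or 0.696 without cell body replicate 1. These probe sets of 1 gene thus gave opposite orders of the fractions, each without overlap. Timm23, the channel, stood at 0.35, and Timm17a and Timm21 at 0.02 and 0.02, with an interval of -0.41 to 0.45 for Timm17a.

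The import motor, which pulls precursors into the matrix, had 5 positive genes and a median of 0.374 (4 positive and 0.0432 on hybridization controls). Timm44, which tethers the motor to the channel, had cell body signals of 791.4 and 885.1 and pseudopodia signals of 1511.5 and 1602.5 on the probe set that passed. Both pseudopodia arrays were well above. The difference was 0.88 ± 0.19 (limma, adjusted p = 0.048), and 0.554 on hybridization controls, without passing. The same Timm44 set also missed the threshold with arrays centred on their medians, after quantile normalization and with a pseudocount of 1. The adjusted p in limma was then 0.0549, 0.0536 and 0.0564. Its brightest probe set stood at 0.46 ± 0.20 (adjusted p = 0.223), with cell body signals of 1149.6 and 948.4 and pseudopodia signals of 1477.6 and 1413.6, and a dimmer one at -0.18 ± 0.24 with overlapping arrays. Pam16, a regulator of the motor, had cell body signals of 2003.4 and 2102.8 and pseudopodia signals of 2986.2 and 4449.3. Replicate 2 of the pseudopodia was the highest. Its difference was 0.82 ± 0.22 (adjusted p = 0.0794), or 0.537 without that array. Hspa9, the motor's Hsp70, stood at 0.37 on its brightest probe set and -0.29 on the next, and the nucleotide exchange factors Grpel1 and Grpel2 at 0.37 and 0.08.

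In the matrix, the chaperonin subunits Hspe1 and Hspd1, which fold imported proteins, both had positive differences, 1 of them on hybridization controls. Hspe1 had cell body signals of 6028.7 and 6524.3 and pseudopodia signals of 8952.9 and 10594.7. The arrays did not overlap. Its difference was 0.63 ± 0.16 (limma, adjusted p = 0.0649), against 0.347 after quantile normalization and 0.301 on hybridization controls, and a dimmer probe set stood at 0.68. Hspd1 stood at 0.25, also without overlap. Pmpca and Pmpcb, the subunits of the processing peptidase, stood at 0.05 and -0.24 with overlapping arrays, and the interval for Pmpca was -0.40 to 0.51. The dimmer probe set of Pmpcb stood at 0.01.

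**Figure D3:**
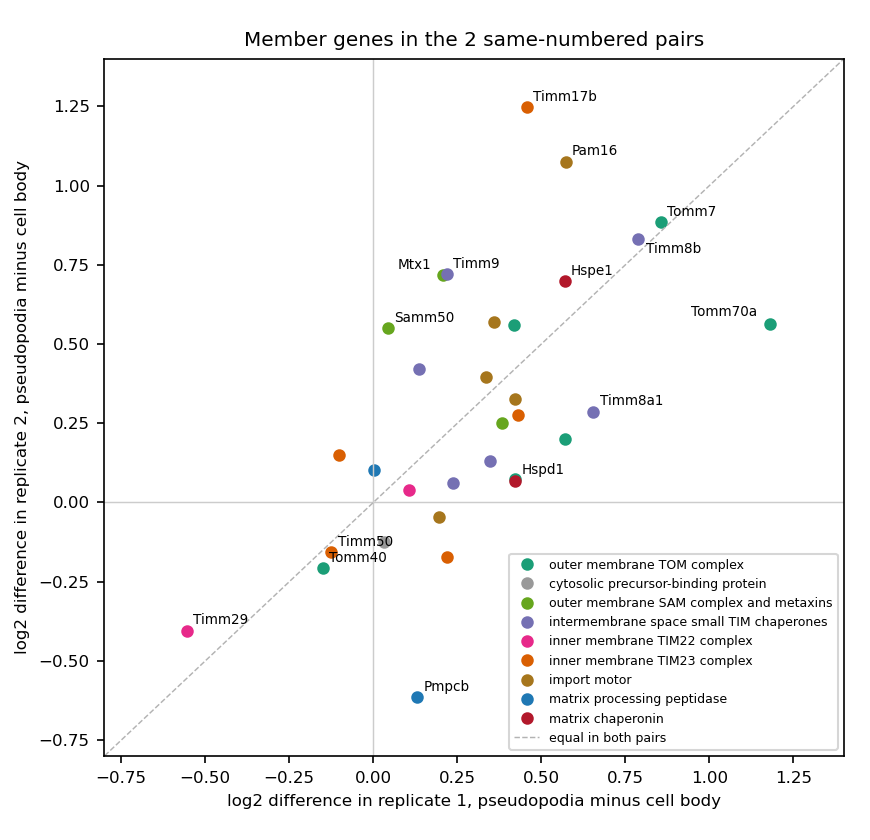
Difference in the replicate 1 pair (horizontal) against that in the replicate 2 pair (vertical), on the log2 scale, for the 32 member genes coloured by role, with a dashed line of equality. Tomm7 and Timm8b lie near the line, while Timm17b, Pam16 and Tomm70a are unequal in the pairs, and Pmpcb changes sign.

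Of 18 member genes with 2 or more kept probe sets, 10 were positive on all, 1 (Timm29) negative on all, and 7 had mixed signs. The 9 probe sets not tested were single sets of Tomm20l, Timm8a2, Timm9, Timm10b, Timm50, Grpel2 and Hspa9 and 2 of Tomm70a. Their signals lay between 1.0 and 68.3, and Tomm20l and Timm8a2 had no other.

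Genes that work beside the import machinery were described in the same way. The median was 0.138 for 32 other genes of import and quality control (20 positive), 0.415 for 6 cytosolic chaperones that hand over precursors (5 positive), 0.302 for 76 mitochondrial ribosomal proteins (64 positive) and 0.40 for 90 genes of the respiratory chain (81 positive). On hybridization controls these medians were -0.177, 0.0828, -0.0298 and 0.0672. As reported, 51.2% of all genes were positive. In the first list none of 58 probe sets was higher by limma (8 unadjusted) and 1 was lower, a probe set of Phb2, a prohibitin, at -2.91 ± 0.34 (adjusted p = 0.018). The brightest of Phb2 stood at 0.54. Among the chaperones 1 of 17 was higher, of Hspa8, the constitutive Hsp70, at 0.74 ± 0.16 (adjusted p = 0.0492), and its brightest stood at 0.33. Of 133 ribosomal protein probe sets 6 were higher (4.51%), of Mrpl52, Mrpl32, Mrpl13 and Mrps15. Of 164 in the respiratory chain 8 were higher (4.88%), of Cox7a2l, Uqcrb, Cycs, Ndufb5, Atp5j and Sdhaf3. None was lower in either by limma (6 and 4 unadjusted). Among all probe sets tested 1.08% were higher and 3.32% lower. With the replicate number as a block the counts of higher probe sets in the 4 lists, in this order, were 9, 7, 24 and 76, and those of lower ones 2, 1, 6 and 3, where 6.84% of all probe sets were higher and 11.3% lower. On hybridization controls 0 sets of the first list were higher and 1 lower, and 0 chaperone sets were higher and 1 lower. There 1 ribosomal protein set was higher and 2 lower, and 1 respiratory chain set higher and 2 lower. Among all probe sets 0.24% were higher and 6.69% lower on these controls. Without the filter on dim signals 0 probe sets of these lists were higher by limma, against 0.0866% of all. As reported, 8, 9, 28 and 74 of the lists were higher unadjusted.

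**Figure D4:**
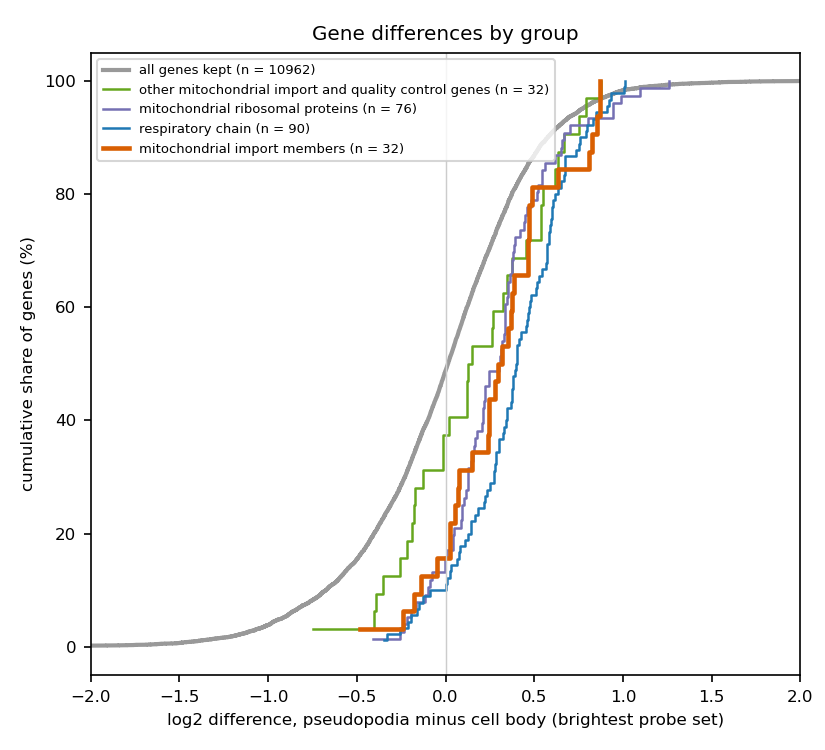
Cumulative share of genes (vertical, %) by their difference on the log2 scale (horizontal), for members, the larger comparison lists and all 10962 genes. The member curve lies right of that of all genes over most of its range and close to that of mitochondrial ribosomal proteins.

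The ETS core CCGGAAG shown above, searched on both strands of the promoters, was present in 16 of 29 member genes that had a RefSeq promoter (55.2%). It was present in 8.86% of all promoters, 9.93% of all genes with a promoter and 20.7% of measured genes. Among mitochondrial ribosomal protein genes it was present in 37.3%, and among respiratory chain genes in 29.7%. Members with it had a median difference of 0.278 (15 genes) and members without it 0.379 (12 genes). It occurred in Timm29, the lowest member, as in Tomm70a and Timm8b, and not in Pam16. The window searched for Hspe1 shares 285 bases with a promoter of Hspd1 on the opposite strand, and the matches printed for Hspe1 overlap each other. The cores of other factors were found in 2 genes (GCGCATGC, NRF-1, 6.9%, against 6.05% of measured genes), 9 (CCAAT, 31%, against 43.2%) and 1 (TATAAA, 3.45%, against 8.6%). The motifs were chosen after the values were seen.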

How the data were processed

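RNA of 2 pseudopodia and 2 cell body samples was hybridised to Affymetrix mouse arrays. The deposited value table gives the linear intensity of each probe set as computed by the authors with MAS5, named in the submitters' processing notes. The version and scaling target are not given in the sources used here. MAS5 subtracts mismatch signal, so dim probe sets are noisy, and scaling ties each value to its array's total. Fixation and its reversal could affect RNA integrity.

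Gene symbols came from the platform annotation. Each array was scaled so that its 2%-trimmed mean was 500, and log2(signal + 32) was taken, which makes differences of dim probe sets too small. The non-control probe sets whose mean log2 value reached their median (22519) were tested in limma (version 3.58.1, R 4.3.3) with lmFit, then eBayes using a variance trend. The test was two-sided, with Benjamini-Hochberg adjustment over all of them and a threshold of 0.05. With 2 arrays against 2, exact permutation reaches no p under 0.333 and was not used. A gene stands by its brightest kept probe set. The number of arrays limits the precision, and a probe set that did not pass may still differ between the fractions. The procedure was tested on simulated data.

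The members and the comparison lists were chosen with earlier results of these data known. Full values are given for member probe sets past the threshold, for the 10 member genes with the largest absolute difference, and for member genes with kept probe sets of opposite sign that differ by 1 or more. Of other lists, members past the threshold are named. The promoters of 5 genes were chosen after their values were seen. Promoters came from the RefSeq table of GRCm38.p6, which held 29 of the 34 member genes. Searches covered 250 bases before to 50 after the start.

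Per the file headers, same-numbered arrays of both fractions were scanned on 1 day and the numbers on different days, and the design text gives them a shared code. The number therefore pairs the arrays. The main test did not use this pairing, and the fit with the replicate number as a block did. The replicate 2 minus replicate 1 differences of the fractions correlated with r = 0.243 over probe sets, which are not independent. Alternatives covered scaling, pseudocount, filter, variance trend, the block, each array left out, and probe set suffix.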

Additional observations from a re-analysis of the deposited data

How the results depend on the processing

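Of the counts and the median, none changed direction except the member median on hybridization controls. The 3 higher member probe sets became 1 after quantile normalization, 1 with a pseudocount of 1, and 1 without _x_at or 1 with only plain _at sets (both chosen after seeing the data). With arrays centred on their medians the count stayed 3, with Hspe1 (limma, adjusted p = 0.0495) in place of Timm44 (0.0549). limma called 0 on hybridization controls (4 at an unadjusted p under 0.05), 0 without the filter (22 unadjusted) and 0 without the variance trend (14 unadjusted). In these settings 392, 2637 and 1571 of all probe sets were higher unadjusted. The replicate block gave 16. The member median of 0.307 became 0.198 after quantile normalization, -0.0246 on hybridization controls and 0.234 with plain _at sets. Of all probe sets, 243 were higher and 747 lower, against 54 and 1506 on hybridization controls, 158 and 495 with the pseudocount of 1, 39 and 137 without the filter, and 1541 and 2546 with the replicate block. Without the trend both were 0 (1571 and 2916 unadjusted). Leaving out 1 array, with the lone array assumed to vary like the other fraction, gave 0 to 17 higher and 0 to 1 lower members, a member median of 0.222 to 0.378, and 0 to 1304 higher and 0 to 2652 lower probe sets in all. The counts of 0 came without cell body replicate 1 (9 higher members unadjusted) and without cell body replicate 2 (10 unadjusted). Without pseudopodia replicate 1 the count was 17, and without pseudopodia replicate 2 it was 9. The cause of these changes was not tested. No member probe set described in full changed sign under any alternative. Signal over background limits the dim probe sets.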
